A study of Caenorhabditis elegans with 3 samples.

Results

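Outside the genes for the Mad-like protein MDL-1 and the Max-like protein MXL-3, 9 genes of Caenorhabditis elegans lay nearest to 7 groups of closely spaced binding regions of the transcription factor MML-1. The genes were T07E3.3, T07E3.4, CC8.2, H18N23.2, F26A3.4, F26A3.5, E01G4.3, T09F3.2 and pkg-2, which are 9 of 19985 annotated protein-coding genes. They were chosen by the positions of the reproducible peaks. A run was 3 or more such peaks in which each summit lay under 10 kb from the next. A gene was taken where a run was nearest to it. By transcript start, all peaks of the runs were nearest to these 9 genes. By gene body, some were nearest to ztf-27, K04C2.2, fmil-1 or del-3 instead. The 7 runs held 24 of the 195 reproducible peaks, which are themselves 0.650% of the 30000 regions called on all replicates together. The choice fixes the number and the crowding of these peaks, so both are given as a description, without a test.

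Binding was measured by ChIP-seq, in which DNA pulled down with a protein by an antibody is sequenced, in 3 biological replicates of whole L3 larvae, males and females pooled, of unknown age. All 3 replicates were of strain OP198, genotype unc-119(ed3) III; wgIs198, a transgenic line that expresses MML-1 with a tag. The labels call the tag eGFP in one place and a C-terminal GFP-FLAG fusion in another, and they do not name the promoter of the transgene. All replicates share 1 donor line, replicates 1 and 2 carry a fragment size range of 150-350 and CGC as source, and replicate 3 carries sonication with a generic microtip and the submitting laboratory. The study has no second condition, and a control library was not analysed here. Whole animals were used, so the cells in which a site was bound cannot be told apart. The lists give no read totals, so depth is unknown.

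MML-1 is the Mondo family protein of the worm, a basic helix-loop-helix leucine zipper factor that binds DNA as a partner of MXL-2. Mondo proteins of mammals, ChREBP and MondoA, pair with Mlx and act on genes of sugar and lipid metabolism. In mammals ChREBP binds carbohydrate response elements, which hold a pair of E-box hexamers a fixed short distance apart. An E-box is a hexamer that begins with CA and ends with TG.

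The sites under the summits are shown because the peaks of a run differed in the E-boxes they held and in how those were spaced. Capitals mark CACGTG, called the core E-box here, and CACATG on either strand (CATGTG when read on the other), called the variant E-box. All sequences are from the + strand of ce11, the RefSeq WBcel235 assembly, 5′ to 3′. The first 4 hold a pair of E-boxes with 5 bases between them.
T07E3.4, chrIII:6897762-6897802, pooled rank 8: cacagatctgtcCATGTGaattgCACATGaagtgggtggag
T09F3.2, chrII:10388473-10388513, pooled rank 62: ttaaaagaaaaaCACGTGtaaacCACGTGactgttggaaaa
CC8.2, chrIV:3652352-3652418, pooled rank 99: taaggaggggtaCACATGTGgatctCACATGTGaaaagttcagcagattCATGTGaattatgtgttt
pkg-2, chrIV:8526307-8526347, pooled rank 162: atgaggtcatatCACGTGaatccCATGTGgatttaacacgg
The next 4 hold pairs with another spacing.
CC8.2, chrIV:3654380-3654430, pooled rank 11: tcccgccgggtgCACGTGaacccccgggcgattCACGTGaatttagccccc
H18N23.2, chrX:17640976-17641017, pooled rank 20: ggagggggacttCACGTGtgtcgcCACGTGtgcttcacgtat
H18N23.2, chrX:17636375-17636413, pooled rank 128: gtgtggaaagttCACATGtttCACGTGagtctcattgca
T07E3.3, chrIII:6904044-6904104, pooled rank 195: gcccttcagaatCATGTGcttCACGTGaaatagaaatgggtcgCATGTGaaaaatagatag
The last 2 are single core E-boxes under the strongest peaks of 1 gene.
E01G4.3, chrII:13462136-13462165, pooled rank 26: ctaacataggttCACGTGaacaacgcgttg
E01G4.3, chrII:13469364-13469393, pooled rank 15: attcctctcgttCACGTGaacaaatgtctc

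Each peak has a signal value that the authors deposited, and how it was scaled is not given in the sources used here. Signal is therefore compared here only within a list, and a rank is the place of a region when its list is ordered by signal from the highest. Ranks come from the pooled list of 30000 regions, called on the 3 replicates together, and from the list of each replicate. The pooled list holds background as well as peaks, so a pooled region outside the reproducible list is not by itself a binding site. A replicate region was matched to a peak where their summits lay within 200 bp.

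Of the 7 runs, 5 had their strongest peak among the 20 pooled regions of highest signal. Those peaks had pooled rank 6 at F26A3.4, 8 at T07E3.4, 11 at CC8.2, 15 at E01G4.3 and 20 at H18N23.2. At T09F3.2 and pkg-2 the strongest peaks had pooled ranks 62 and 92. Each of these is the highest peak of its run. Over all 24 peaks, 8, or 33.3%, had a pooled rank within 50, against 42 of the 171 reproducible peaks outside the runs, or 24.6%. The runs differed in how far 1 peak stood above the rest. At T07E3.4 the strongest peak had 9.74 times the pooled signal of the second peak, and at CC8.2 6.53 times. At F26A3.4 the ratio was 3.27. At E01G4.3, T09F3.2, H18N23.2 and pkg-2 it was between 1.08 and 1.47, so their upper peaks were of like height.

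**Figure D1:**
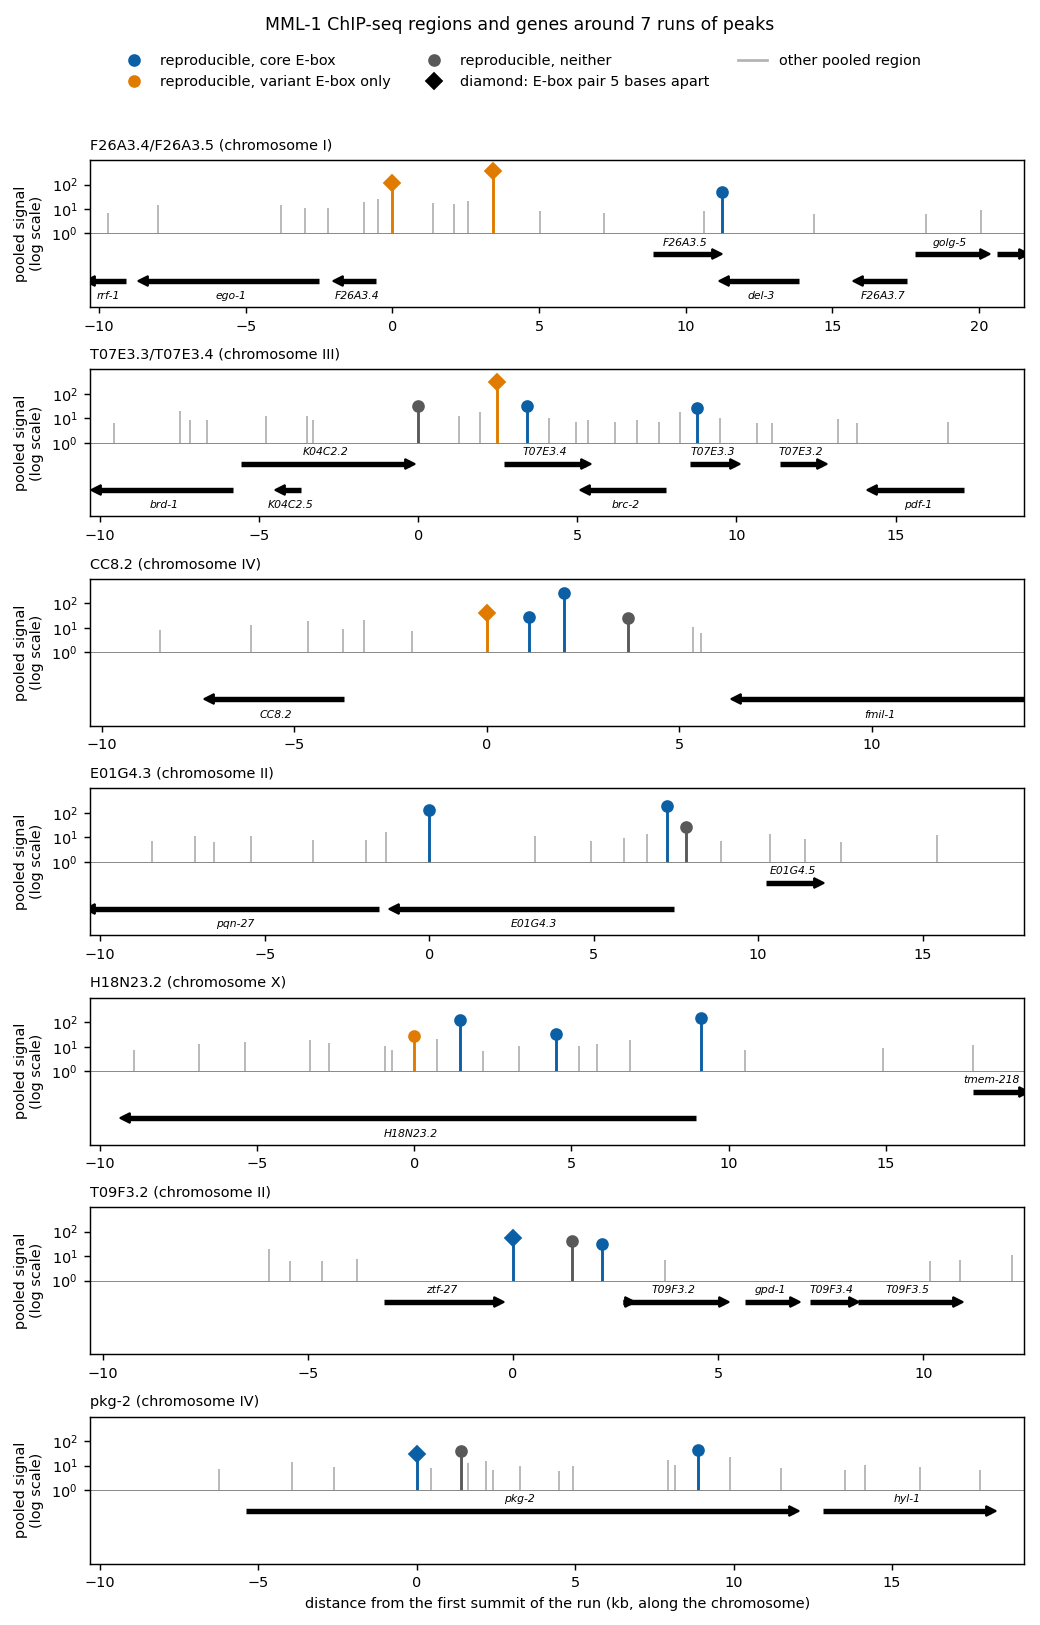
Regions and genes around the 7 runs. The vertical axis is pooled signal on a log scale and the horizontal axis is distance from the first summit of the run in kb. Markers are reproducible peaks coloured by their E-box, diamonds are peaks with an E-box pair 5 bases apart, grey lines are other pooled regions, and arrows are genes. A single high peak stands over smaller ones at T07E3.4, where the highest signal is 313.6 and the second is 32.19, while the 3 peaks at pkg-2 lie between 28.60 and 42.22.

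CC8.2 and H18N23.2 both carry the RefSeq product name protein phosphatase 1 regulatory subunit. Such subunits steer the catalytic subunit of protein phosphatase 1 to its substrates, and several in mammals bind glycogen. They were the only genes with that product name in the annotation, 2 of 2, though genes of like function may carry other names. All 9 chosen genes had a reproducible peak within 10 kb of the gene body, against 3.34% of all protein-coding genes. All but F26A3.4, which had 2, had 3 or more such peaks, against 0.145%. The choice of genes fixed these counts, and nothing is read from them.

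The run of 4 peaks upstream of CC8.2 (WBGene00016987, chromosome IV, 3645166 to 3648684, - strand) spanned 3663 bp of intergenic sequence. Its summits lay 3712, 4818, 5717 and 7375 bp upstream of the start of CC8.2. On the far side the last summit lay 2815 bp beyond the end of fmil-1, which is read from the same strand. The strongest peak, IV 3654290 to 3654498, had a pooled signal of 257.7. Its signal was 131.0, 72.59 and 51.49 in replicates 1, 2 and 3, which put it at ranks 11, 10 and 19. It was thus near the top of all 3 lists, and it held 2 core E-boxes with 15 bases between them.

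The other 3 peaks of the CC8.2 run were much lower and less even across replicates. The peak at 3652254 to 3652537 held 5 variant E-box matches at 3 places, since CACATGTG reads as a match on each strand, and it had pooled rank 99 and ranks 625, 93 and 81 in replicates 1, 2 and 3. The peak at 3653360 to 3653643, with 1 core E-box, had pooled rank 182 and ranks 2633, 5681 and 135. It was the only peak of the 24 that came within the first 1000 regions of a single replicate. The peak at 3655917 to 3656200, with neither E-box, had pooled rank 194 and ranks 140, 134 and 2457.

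At H18N23.2 (WBGene00019211, chromosome X, 17622710 to 17640871, - strand) 4 peaks spanned 9108 bp. One lay 133 bp upstream of the gene start and 3 lay in introns. The peak at the start, X 17640916 to 17641091, had a pooled signal of 147.9 and pooled rank 20. Its signal was 81.86, 28.35 and 40.22 in replicates 1, 2 and 3, at ranks 15, 27 and 29. The intronic peak at 17633276 to 17633446 followed closely, with a pooled signal of 128.1 at rank 24. Its replicate signals were 50.38, 22.07 and 59.50, at ranks 31, 38 and 14. Both held 2 core E-boxes, and in both every replicate rank was within the first 38.

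The other pair of intronic peaks of H18N23.2 was lower. The peak at 17636279 to 17636562 had pooled rank 128 and replicate ranks 1145, 105 and 61, and it held a variant and a core E-box 3 bases apart. The peak at 17631754 to 17632037 had pooled rank 174. It had ranks 154 and 158 in replicates 1 and 3 but 22036 of 30000 in replicate 2, far below its place in the other lists.

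The remaining gene named for a phosphatase was F26A3.4 (WBGene00009142, 7656978 to 7658291, - strand), whose product name, protein-tyrosine-phosphatase, belongs to enzymes that take phosphate from tyrosine. Of 10 genes with this product name it was the only one with a reproducible peak in its window, and it was chosen for its peaks. It shared a run of 3 intergenic peaks over 11246 bp with F26A3.5 (WBGene00009143, 7667729 to 7669900, + strand), whose product name marks a domain of transposase type. The run lay on chromosome I. The strongest peak, 7662142 to 7662395, had a pooled signal of 368.7, the highest of the 24. Its signal was 182.3, 103.3 and 90.43 in replicates 1, 2 and 3, at ranks 5, 5 and 8, so it was among the top regions everywhere.

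The first peak of that run, 7658757 to 7658890, lay 558 bp upstream of F26A3.4 and the strongest lay 3985 bp upstream. The first had a pooled signal of 112.9 at rank 29, replicate signals of 46.50, 25.00 and 41.73, and ranks 35, 30 and 27. Neither peak held a core E-box. Each held 2 variant E-boxes with 5 bases between them. The third peak, 7669953 to 7670236, lay 2366 bp downstream of the start of F26A3.5, past its end, and 60 bp from the end of del-3. It held 1 core E-box and had pooled rank 74, with ranks 47 and 63 in replicates 1 and 2 and no matched region in replicate 3.

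One member encodes a kinase. pkg-2 (WBGene00015650, chromosome IV, 8520894 to 8538187, + strand) is named cGMP-dependent protein kinase, an enzyme that puts phosphate on serine and threonine when cyclic GMP binds it. Its 3 peaks all lay in introns, over 8881 bp. They were of like height, with pooled signals of 28.60, 39.03 and 42.22 at ranks 162, 102 and 92. The middle peak, 8527556 to 8527839, was the most even, with signals of 21.59, 16.26 and 20.43 at ranks 71, 60 and 67. It held no E-box of either kind.

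The first pkg-2 peak, 8526145 to 8526428, held a core and a variant E-box 5 bases apart. Its rank was 137 in replicate 1 and 92 in replicate 3, and replicate 2 held no match. The third, 8535026 to 8535309, held 1 core E-box and ranked 139, 132 and 95. Its summit was 740 bp upstream of an internal transcript start of pkg-2. egl-4, the other well known cGMP-dependent kinase gene of the worm, had 1 reproducible peak within 10 kb, at pooled rank 172.

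T07E3.4 (WBGene00020315, chromosome III, 6898014 to 6900605, + strand) encodes a protein with an F-box domain, a fold that in many proteins joins a substrate to a ubiquitin ligase. T07E3.3 (WBGene00020314, chromosome III, 6903877 to 6905282, + strand) encodes a protein with a thioredoxin domain of DsbA type, a fold of enzymes that act on disulfide bonds. The F-box product name is common, and 6 of 381 genes that carry it had a reproducible peak in the window, against 668 of all 19985 protein-coding genes. Together the pair had 4 peaks over 8745 bp, with brc-2, the worm gene related to BRCA2, between them on the - strand.

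The strongest peak of that run, III 6897675 to 6897914, lay 217 bp upstream of T07E3.4 and had a pooled signal of 313.6. Its signal was 133.6, 62.00 and 112.8 in replicates 1, 2 and 3, at ranks 10, 14 and 4. It held no core E-box and 2 variant E-boxes 5 bases apart, as did the 2 strongest peaks near F26A3.4. The other 3 peaks each lacked a match in 1 replicate. The one 2682 bp upstream of T07E3.4, next to the end of K04C2.2, was missing in replicate 1. The one in an intron 724 bp past the start of T07E3.4 was missing in replicate 2. The one in an intron 200 bp past the start of T07E3.3 was missing in replicate 3 and, at a signal of 26.01, was the lowest of all reproducible peaks. It also lay 971 bp upstream of the start of brc-2.

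The products of E01G4.3 and T09F3.2 are uncharacterized. E01G4.3 (WBGene00008446, chromosome II, 13461082 to 13469602, - strand) had 3 peaks over 7792 bp. The peak at 13469263 to 13469490 lay in an intron 233 bp past the gene start, with a pooled signal of 185.3 and replicate signals of 79.77, 35.54 and 65.97 at ranks 17, 20 and 12. The peak at 13462089 to 13462258 lay near the other end of the gene, with a pooled signal of 126.3 and replicate signals of 51.13, 19.80 and 58.24 at ranks 28, 46 and 17. Its summit was 110 bp upstream of an internal transcript start and 291 bp upstream of the microRNA gene cel-mir-4929. Both were high in all 3 replicates.

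The E-boxes of those 2 peaks, 7214 bp apart, lay in the same 14 bases, gttCACGTGaacaa. The third peak, 345 bp upstream of E01G4.3, was the weakest at pooled rank 187. It held neither E-box and had no matched region in replicate 3.

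T09F3.2 (WBGene00011662, chromosome II, 10391154 to 10393614, + strand) had the shortest run, 3 peaks over 2160 bp in the interval between the end of ztf-27 and its own start. They lay 2673, 1239 and 513 bp upstream. The first, 10388339 to 10388622, held 2 core E-boxes 5 bases apart and had a pooled signal of 57.64, with replicate signals of 18.90, 13.74 and 31.80 at ranks 89, 78 and 39. The second had a pooled signal of 41.28 and ranks 99, 379 and 118. The third had a pooled signal of 30.86, ranks 336 and 87 in replicates 1 and 3, and no match in replicate 2. T09F3.7, whose product is uncharacterized, began 527 bp from the last summit, within the span of T09F3.2. Downstream of T09F3.2, gpd-1, T09F3.4 and T09F3.5 began 3488, 5066 and 6237 bp from the last summit. gpd-1 encodes the glycolytic enzyme glyceraldehyde-3-phosphate dehydrogenase. T09F3.4 is named for a mitochondrial ribosomal protein and T09F3.5 for an RNase H domain.

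The ranks of the 24 peaks in each replicate are described here by their pooled height. The pooled list was called on these same 3 replicates, so likeness between pooled and replicate ranks is not separate support. All 8 peaks of the runs with a pooled rank within 50 ranked between 4 and 46 in every replicate. The 7 peaks without a matched region in some replicate all had pooled ranks between 74 and 195. Of the 24 peaks, 13, or 54.2%, were within the first 1000 regions of all 3 replicates, against 57.9% of the 171 other reproducible peaks. At least 1 replicate held no matched region for 7 of the 24 and for 19 of the 171. Missing matches fell in replicate 1 for 1 peak, in replicate 2 for 3 and in replicate 3 for 3. Among the 171 other reproducible peaks they fell in replicates 1, 2 and 3 for 0, 11 and 8 peaks. The list of replicate 3 is shorter, at 27021 regions against 30000 in each of replicates 1 and 2. The labels separate replicate 3 from replicates 1 and 2 by source. They give sonication for replicate 3 and a fragment size range for replicates 1 and 2, which does not show whether shearing differed. The part of replicate 3 in these gaps was not tested.

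**Figure D2:**
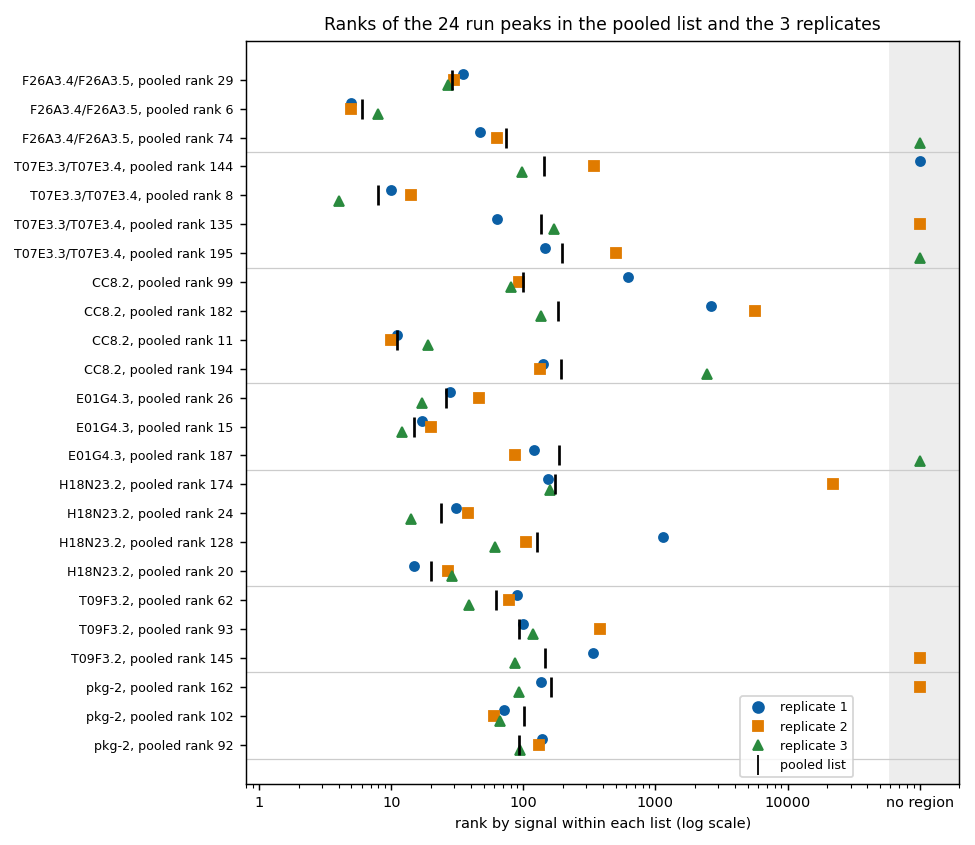
Rank of each of the 24 peaks in the pooled list (bars) and in replicates 1, 2 and 3 (symbols), on a log scale where 1 is the highest signal. The grey strip holds peaks with no region within 200 bp. The peaks with a pooled rank within 50 keep their symbols between 4 and 46, while lower peaks spread out to 22036. The pooled list was called on the same 3 replicates, so its ranks are not independent of theirs.

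Within 100 bp of the summit, 14 of the 24 peaks, or 58.3% (95% interval 36.6 to 77.9), held CACGTG, against 59.6% (51.9 to 67.1) of the other reproducible peaks and 4.31% of the other 29797 pooled regions. The interval of the runs is wide and holds that of the other reproducible peaks, and the difference was not tested. Among pooled ranks 1 to 50 the core E-box was in 5 of 8 peaks of the runs, or 62.5%, and in 34 of 42 others, or 81.0%. All motif shares are over windows of 201 bp read on both strands. The centre of the nearest core E-box was a median of 11 bp from the summit in the runs and 12 bp in the other reproducible peaks. CACATG was found in 11 of the 24, or 45.8% (25.6 to 67.2), against 28.7% (22.0 to 36.1) of the other reproducible peaks and 7.81% of the other pooled regions. The intervals overlap. Another hexamer, AGAGAC, taken from earlier results of these data, was found in 9 of the 24, or 37.5%, against 38.0% of the other reproducible peaks and 9.14% of the other pooled regions.

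Of the 24 peaks, 5 held the variant E-box and no core E-box. Their pooled ranks were 6, 8, 29, 99 and 174, with a median of 29.00. The 14 peaks with a core E-box had a median pooled rank of 83.00, and the 5 with neither had 144.0. Among the other reproducible peaks the medians were 94.00 for 29 peaks with the variant only, 78.00 for 102 with the core and 130.5 for 40 with neither. Of the 5, 2 belong to F26A3.4 and lie in 1 run, so they are not independent of each other.

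**Figure D3:**
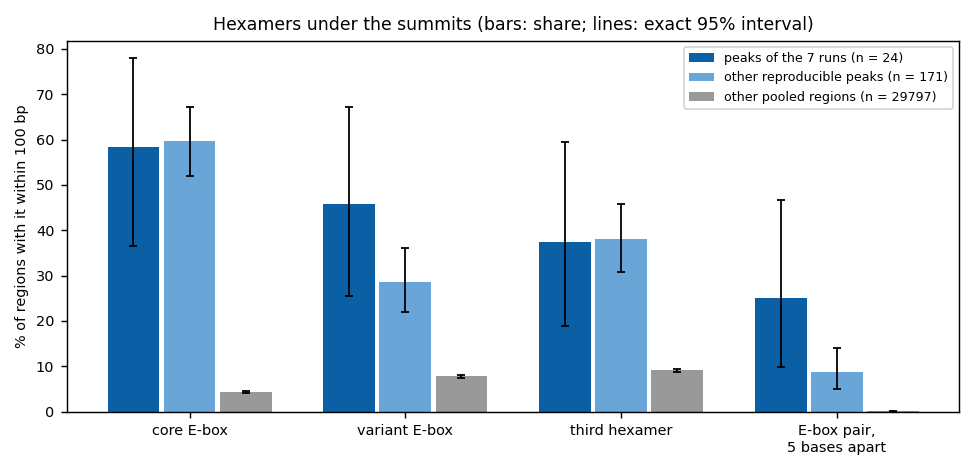
Share of regions with each hexamer, or with an E-box pair 5 bases apart, within 100 bp of the summit. Bars are the peaks of the 7 runs, the other reproducible peaks and the other pooled regions, and lines are exact 95% intervals, which cover the number of regions only. The core E-box stands at 58.3% and 59.6% in the first 2 sets.

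Pairs of E-boxes with 5 bases between them were found in 6 of the 24 peaks, or 25.0% (9.77 to 46.7), against 8.77% (4.99 to 14.1) of the other reproducible peaks and 0.0503% of the other pooled regions. Either E-box on either strand was counted, and this spacing was looked at after the sequences had been seen. The intervals of the runs and of the other reproducible peaks overlap, and the difference was not tested. Peaks of 1 run share their locus, so the 24 are not independent, which the intervals do not take into account. The 6 peaks belong to 5 of the 7 runs: 2 lie near F26A3.4 and 1 each near T07E3.4, T09F3.2, CC8.2 and pkg-2. Of these, 4 joined 2 variant E-boxes, 1 joined 2 core E-boxes and 1 joined 1 of each. The CC8.2 peak also held pairs 7 and 9 bases apart, since CACATGTG there matches on both strands. In the whole reproducible list the spacing of 5 bases was the most frequent of all from 0 to 30 bases, in 21 peaks, and the next held 5. A match describes the letters in the window and does not show which site was bound.

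**Figure D4:**
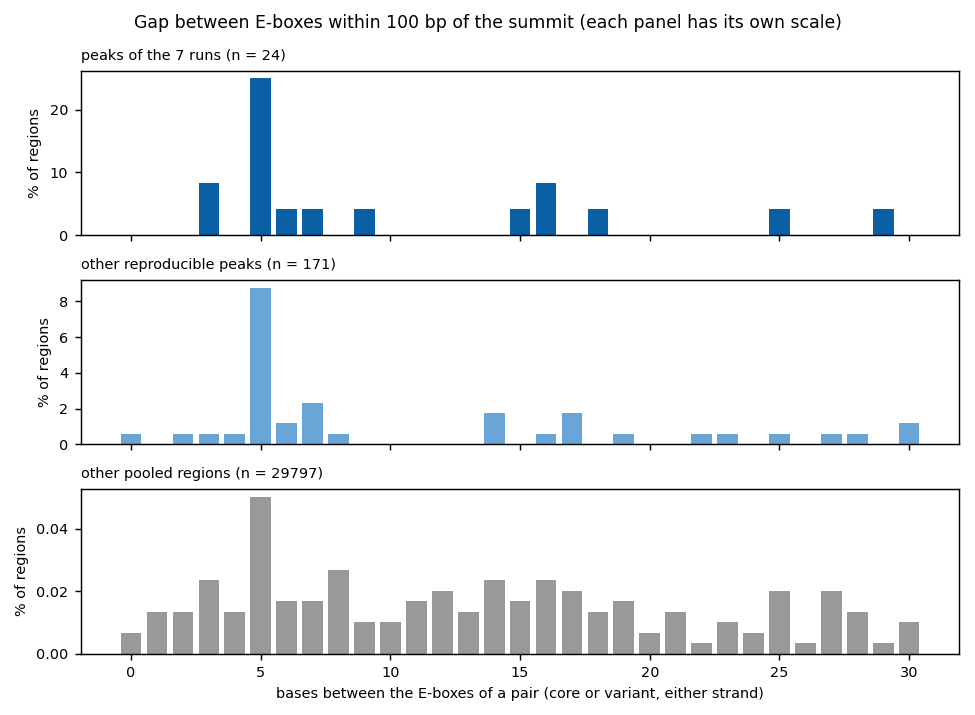
Share of regions that hold a pair of E-boxes at each spacing from 0 to 30 bases, for the peaks of the 7 runs, the other reproducible peaks and the other pooled regions. Each panel has its own scale in percent. The bar at 5 bases is the highest in each panel, at 25.0%, 8.77% and 0.0503%.

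The bases next to the core E-box also varied. Of 18 CACGTG sites under the peaks of the runs, 9 read TCACGTGA, against 29 of 122, or 23.8%, under the other reproducible peaks. Sites of 1 run share their surroundings and are not independent.

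The 17 gaps between neighbouring summits of the runs went from 578 to 7819 bp, with a median of 1658 bp, and 4 were under 1000 bp. The 13 gaps in the runs at mdl-1 and mxl-3 went from 409 to 3825 bp, with a median of 1308 bp. The mdl-1 run held 10 peaks over 13562 bp and the mxl-3 run 5 over 8981 bp, so each had more peaks than any of the 7. By median gap the tightest of the 7 was T09F3.2, at 1080 bp, and CC8.2 followed at 1106 bp. Among genes of the same network, mml-1 had 2 reproducible peaks in its window and mxl-1 and mxl-2 had 0, which is a count of listed peaks and not of absent binding. The gap of 7819 bp at F26A3.4 was the widest inside the limit. Just outside, 3 peaks near gpdh-3 and D2030.2 were kept from forming a run by a gap of 10722 bp.

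In position, 14 of the 24 peaks were intergenic and 10 intronic, against 111 and 52 of the 171 other reproducible peaks. In promoter windows, set as 1000 bp before to 200 bp after the nearest transcript start, lay 8 of the 24, or 33.3%, against 82 of the 171, or 48.0%. The median pooled rank was 96.00 in the runs and 98.00 in the others.

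Below the reproducible list, the windows of the 9 genes and 10 kb each side, 210.1 kb in all, held 115 more pooled regions. That is 0.547 per kb, against 0.297 per kb over the 6 chromosomes. Some of these regions lie close to a summit for which the genes were chosen, so nothing is read from this density. With the reproducible peaks the windows held 139 pooled regions, of which 17.3% were reproducible, against 0.650% of the whole pooled list. The genes were chosen for their reproducible peaks, so the choice raised this share and nothing is read from it. Replicate lists held 147, 124 and 110 regions in these windows in replicates 1, 2 and 3. These counts include regions matched to the chosen peaks, so they are given as a description, without a test. The highest region outside the reproducible list there was at pooled rank 213, near F26A3.4, with a signal of 24.96. The lowest reproducible signal was 26.01 and the highest outside that list anywhere was 25.84. The reproducible list thus held the 195 pooled regions of highest signal. Of these, 26 had no matched region in at least 1 replicate. The lists of replicates 1 and 2 and the pooled list each stop at 30000 regions.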

How the data were processed

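Lists of regions from 3 replicates of whole L3 larvae, a pooled list and a reproducible list were used. The signal value and summit of each region were deposited by the authors, and the values were compared only within a list. Per the file names, the reproducible list was thresholded by the irreproducible discovery rate. Which aligner and caller were run, and at what threshold, is not given in the sources used here.

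The ce11 lists were read with the WBcel235 genome and Ensembl release 115 annotation, and product names came from RefSeq. Coordinates are 1-based. Windows ran 10 kb each side of a gene. Motifs were searched within 100 bp of summits, and the code that counts them was checked on sequences with planted motifs, which says nothing of the shares reported. Intervals are exact Clopper-Pearson intervals of 95% and cover the number of regions only. No test between groups was run, since there is 1 condition. The software was matplotlib 3.10.9, SciPy 1.17.1, pandas 2.3.3 and numpy 2.4.6 under Python 3.11.15. The members and gene lists were chosen with earlier results of these data known. All members and their run peaks were named, and neighbours within 10 kb of a run could be named. Alternatives varied window, spacing, list, summit window, matching and replicates.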

Additional observations from a re-analysis of the deposited data

How the results depend on the processing

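Among the 98 peaks of highest signal, 12 lay in the windows of the 9 genes, against 24 in the whole list, and 3 runs of 3 or more peaks were found, against 9. Of the 7 runs at these genes, that setting left only the one at F26A3.4 and F26A3.5, and the other runs it gave were at mdl-1 and mxl-3. With a spacing under 5 kb, 14 peaks lay in runs nearest to the genes, against 24. The runs at F26A3.4 and F26A3.5, E01G4.3 and pkg-2 then no longer reached 3 peaks. The run at T07E3.3 and T07E3.4 kept 3 peaks and lost the one at T07E3.3. Other window sizes, a spacing under 20 kb, the ce10 list and other summit windows moved no count by over 1.5 times. Peaks found within the first 1000 regions of all replicates used were 13 with all 3, and 15 to 17 when each replicate was left out in turn. Leaving out a replicate removes a requirement, so this count could only stay the same or rise. The spacing of 5 bases between E-boxes was an alternative chosen after seeing the data, and it gave 6 peaks with 50 bp each side too. Depth is unknown, so a missing match in a replicate does not show that a site was unbound. No comparison between replicates as groups was tested.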

Other observations

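The E-box pair with 5 bases between was also found in 15 reproducible peaks outside the 7 runs. By pooled rank, their nearest starts were ZK829.7 at rank 5, mdl-1 at ranks 7 and 16, F56H9.2 at rank 9, acl-12 at rank 18, tmem-189 at rank 44 and atf-4 at rank 49. Next came pyk-1, which encodes the glycolytic enzyme pyruvate kinase, at rank 54, then nadk-1 at rank 55, C27A7.5 at rank 59 and nhr-105 at rank 63. acly-1, which encodes ATP citrate lyase, an enzyme that makes acetyl-CoA for fat synthesis, was at rank 65. The last were C42D4.18 at rank 96, cdk-7 at rank 109 and D2030.2 at rank 130. Nothing about shared function was tested. Of all 21 peaks with the pair, 19, or 90.5%, were within the first 1000 regions of every replicate, against 112 of all 195 reproducible peaks, or 57.4%. The peaks with the pair had a median pooled rank of 54.00 and all reproducible peaks 98.00, and the part of rank in this difference was not tested.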
